A study of Mus musculus with 6 samples.

Results

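Genes of cell division, 40 in all, were followed across 6 arrays of mouse kidney RNA, 25 that act in mitosis and 15 that act in DNA replication. They were chosen by name: each is a gene whose name the scanner files give for at least 1 non-control probe, and together they had 64 probes, with 22 genes on 1 probe and 18 on several. They stand beside 27343 genes with a probe in all, of which 19611 were well above background on at least 2 of the 6 arrays and were tested. Of the 40 genes 39 were tested, 24 mitotic and 15 replication genes, and 28 were above background on all 6 arrays (16 mitotic and 12 replication genes). The kinetochore kinase gene Ttk was above background on no array and has no value in what follows.

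The kidneys came from wild-type mice and from mice with Gpr97 deficiency, after a sham operation or after ischaemia/reperfusion injury, in which blood flow to the kidney is stopped and then restored. Gpr97 is the older name of Adgrg3, an adhesion G protein-coupled receptor gene. There were 2 arrays of wild-type sham kidney, 2 of wild-type injured kidney, 1 of Gpr97-deficient sham kidney and 1 of Gpr97-deficient injured kidney, all labelled as male. The sources used here do not give the strain, age, deficient allele, ischaemia length or collection time, and the labels leave unsaid whether arrays of 1 group are from different animals. P-values therefore measure only the spread between these samples, which may be technical.

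A dividing cell copies its DNA in S phase and separates the copies in mitosis. Replication genes are switched on at the G1/S boundary, largely through E2F transcription factors; their products load the MCM helicase onto origins, build the clamp that holds the polymerase, and make deoxynucleotides. Mitotic genes follow in G2, through CHR (cell cycle genes homology region) and CCAAT elements in their promoters; their products are the mitotic cyclins with Cdk1, the spindle kinases and checkpoint, kinetochore proteins and spindle motors. The adult kidney divides little, and surviving tubule cells can re-enter the cycle after injury.

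On the arrays 63.0% to 71.0% of probes were above background and 0 spots were saturated; their number limits the precision. The weakest signal that counted as above background differed by slide, at -4.48 and -4.47 on slide 1 and -5.69 to -5.47 on slide 2 (log2), so a signal called on slide 2 may not be called on slide 1: Ccnb1 was not called at -4.56 on wild-type sham array 1 and was called at -5.20 on array 2. Adgrg3 read 0.20 and 0.02 in wild-type sham, 1.06 and 1.18 in wild-type injured, -5.38 in deficient sham and -5.75 in deficient injured kidney, in log2 signal relative to the array's 75th percentile, the scale of all values below. Thus the deficient arrays were low for the targeted gene. Wild-type injured array 1 is labelled male but read 4.05 for Xist, at most -5.45 elsewhere, and its 4 Y-linked genes were not above background, so its label is in doubt and counts are also given without it. Of the wild-type arrays, sham 1 and injured 2 were on slide 1, and the other 4 arrays of the series on slide 2. The injured tubule genes Havcr1, Sox9, Krt20, Vcam1, Clu, Spp1 and Timp1 all averaged higher in wild-type injured than sham kidney (7 of 7, median 2.26), and the same 7 were higher in deficient injured than deficient sham kidney (median 2.73).

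The promoters of 33 of the 40 genes were found in the RefSeq table of build GRCm38.p6, as 250 bases before to 50 after the start. They differ between the roles in words that the rule did not use. A CHR word, TTTGAA or TTCGAA, on either strand was in 16 of 20 mitotic promoters (80%) and 3 of 13 replication promoters (23.1%), against 14.6% of the 12413 tested genes with a promoter and 19.5% of all 27025 promoters. An E2F word, which is TTCCCGC or TTCGCGC or TTGGCGC or TTGCCGC, on either strand was in 3 of 20 mitotic promoters (15%) and 8 of 13 replication promoters (61.5%), against 15.4% of tested genes and 9.72% of all promoters. CCAAT, on either strand, was in 18 of 20 mitotic (90%) and 9 of 13 replication promoters (69.2%), against 38.6% and 38%. E2F words can overlap one another, since several share GCGC, and a match is only a run of letters. Among the mitotic genes Birc5, Cenpe, Nusap1 and Ccnb1 held no CHR word in this window, and among the replication genes Ccne1, Mcm2, Cdc45, Pcna and Tyms held no E2F word.
The 180 bases before the start are shown for 3 mitotic and 3 replication genes, picked after the search so that the late and early designs can be compared by eye; capitals mark CHR, CCAAT and E2F words, and each runs 5′ to 3′ towards the gene.
Cdk1, chr10:69352913-69353092, strand minus: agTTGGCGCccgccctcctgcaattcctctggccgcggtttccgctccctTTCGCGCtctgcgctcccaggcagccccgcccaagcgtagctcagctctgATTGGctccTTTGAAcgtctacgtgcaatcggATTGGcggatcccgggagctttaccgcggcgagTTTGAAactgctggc
Cdc20, chr4:118437344-118437523, strand minus: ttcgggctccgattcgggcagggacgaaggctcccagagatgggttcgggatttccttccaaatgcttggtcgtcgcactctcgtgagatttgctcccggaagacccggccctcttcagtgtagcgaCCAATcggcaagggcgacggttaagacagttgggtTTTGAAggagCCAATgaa
Ube2c, chr2:164769749-164769928, strand plus: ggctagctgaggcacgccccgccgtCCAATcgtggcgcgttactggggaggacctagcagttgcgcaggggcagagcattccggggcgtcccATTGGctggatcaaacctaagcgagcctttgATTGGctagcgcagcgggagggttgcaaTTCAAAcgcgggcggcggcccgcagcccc
Mcm5, chr8:75109329-75109508, strand plus: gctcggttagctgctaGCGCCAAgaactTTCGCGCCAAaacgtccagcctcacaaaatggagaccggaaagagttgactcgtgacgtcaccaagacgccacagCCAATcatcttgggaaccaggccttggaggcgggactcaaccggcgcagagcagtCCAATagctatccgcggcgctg
Mcm6, chr1:128359706-128359885, strand minus: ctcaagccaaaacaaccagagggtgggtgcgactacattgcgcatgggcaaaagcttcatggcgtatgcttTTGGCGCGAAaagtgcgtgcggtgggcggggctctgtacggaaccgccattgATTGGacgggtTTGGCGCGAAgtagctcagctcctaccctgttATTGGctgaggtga
Rrm1, chr7:102441515-102441694, strand plus: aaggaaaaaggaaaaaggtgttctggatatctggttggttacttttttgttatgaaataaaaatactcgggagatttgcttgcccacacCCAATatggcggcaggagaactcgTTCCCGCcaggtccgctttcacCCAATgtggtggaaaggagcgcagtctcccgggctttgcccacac
Cdk1 carries words of all 3 kinds in this stretch, Cdc20 and Ube2c only CHR and CCAAT words, and Mcm5, Mcm6 and Rrm1 only E2F and CCAAT words. After the start, and so not shown, Mcm5 has a further CCAAT word and Mcm6 a further E2F word.

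**Figure D1:**
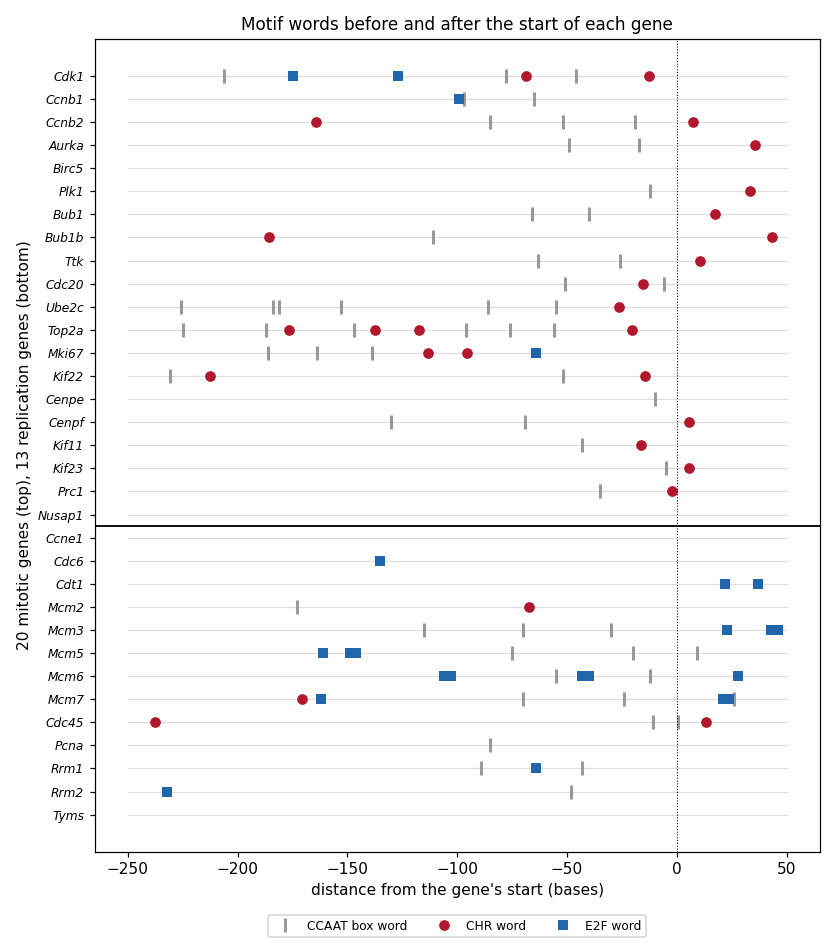
Motif words in 33 promoters by their distance in bases from the gene's start (dotted line); circles are CHR words, squares E2F words and grey bars CCAAT words, with 20 mitotic genes above the line and 13 replication genes below it. CHR words are in 16 of the 20 mitotic genes, and E2F words in 8 of the 13 replication genes.

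Across the 6 arrays the groups of genes followed different orders. The deficient sham array had the highest signal of all 6 for 22 of 24 mitotic genes, against 14.4% of 19604 tested genes with a value on every array, and for 10 of 15 replication genes. With the mean of a gene's probes the latter count was 6 of 15, against 13.6%, and it was 8 of 15 with normexp correction, quantile normalization or the deposited values. Relative to the mean of the wild-type sham arrays, the median mitotic gene stood at -0.64 and 0.64 on those 2 arrays themselves, 0.19 and -0.18 on wild-type injured arrays 1 and 2, 2.42 on the deficient sham array and -0.73 on the deficient injured array. The median replication gene stood at 0.13 and -0.13, 0.64 and 0.60, 0.88, and 0.30 in the same order. So the mitotic median was high on 1 array, while the replication median was above the wild-type sham level on all 4 other arrays. Between the wild-type sham kidneys, array 2 minus array 1 was 1.28 in these 24 mitotic genes (median, 20 higher) and -0.26 in the 15 replication genes (4 higher), but -0.24 in 31 other mitotic genes (14 higher). It was 1.18 in 9 macrophage and dendritic cell markers (9 higher) and 2.07 in 8 T and NK cell markers (8 higher). The 2 arrays were on different slides, and of the T and NK cell markers 3 were above background on array 1 and 8 on array 2. The part of these cells or of the slide in the difference was not tested.

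**Figure D2:**
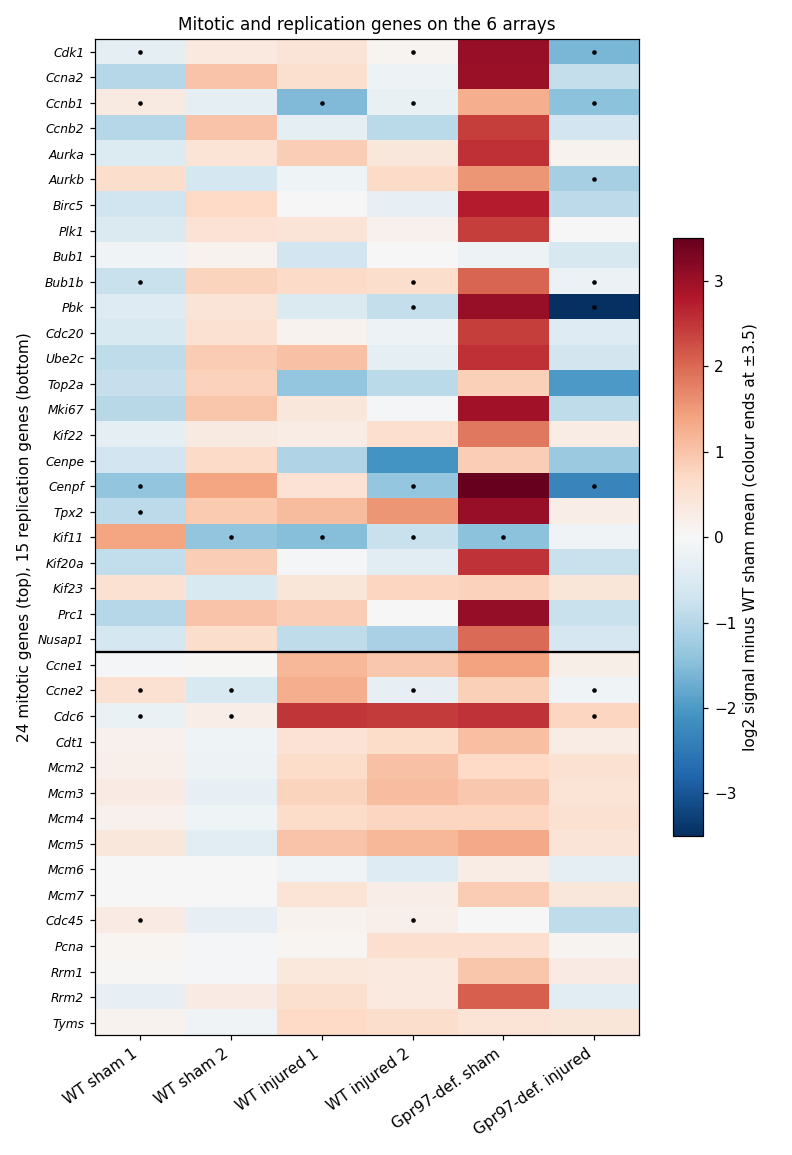
Log2 signal of 39 genes on the 6 arrays minus the mean of the wild-type sham arrays, with mitotic genes above the line and replication genes below it; black dots mark values not above background. The deficient sham column is the highest for 22 of 24 mitotic genes.

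**Figure D3:**
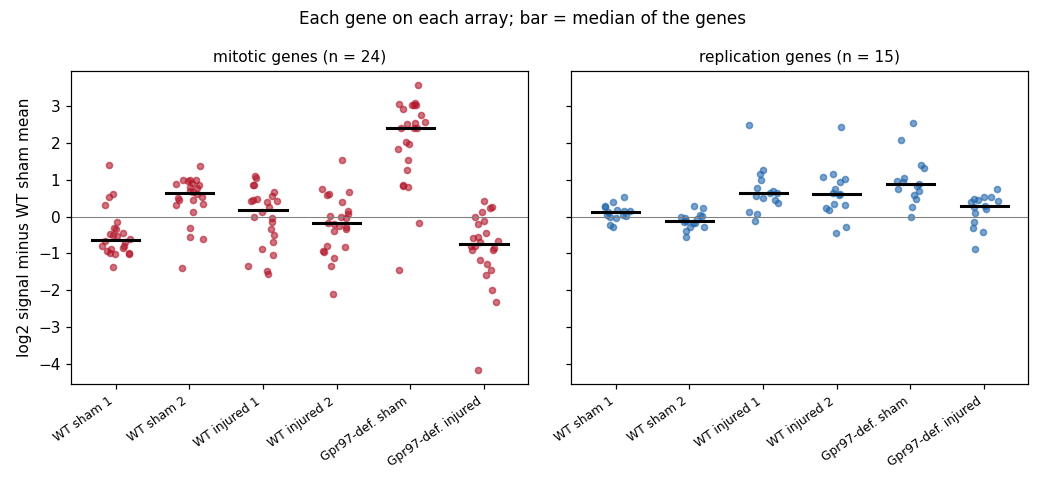
The same differences as points, 1 per gene, with the median of the genes as a bar on each array. The mitotic median is 2.42 on the deficient sham array and -0.73 on the deficient injured array, while the replication medians run from -0.13 to 0.88.

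The genes of mitotic entry, Cdk1 and its cyclins, were 1.26 to 3.05 higher in deficient sham than in wild-type sham kidney (4 of 4). Cdk1, the kinase that starts mitosis, read -5.82 and -5.15 on the wild-type sham arrays, -5.03 and -5.40 on the wild-type injured arrays, -2.43 on the deficient sham array and -7.07 on the deficient injured array. Among the wild-type arrays it was not above background on sham 1 and injured 2, as it was on the deficient injured array. Its probe lies at chr10:68805423-68807832 in mm9, a span longer than the probe. The deficient injured kidney was at least 9.56-fold below the deficient sham kidney, a bound because the lower array was not above background. A bound sets the brighter array against the weakest signal counted as above background on the lower array. Where the measured signal of the lower array was higher than that, the measured signal was used. Cyclin A2 (Ccna2), which drives S phase and G2, read -3.84 and -1.83, then -2.27 and -3.02 in the wild-type kidneys, 0.20 in deficient sham and -3.67 in deficient injured kidney. Its wild-type sham arrays thus lay apart and enclosed both wild-type injured arrays. Cyclin B2 (Ccnb2) had the same shape, with 0.83 on the deficient sham array and -2.57 to -0.58 on the other 5. Cyclin B1 (Ccnb1) was above background on 2 arrays only, wild-type sham 2 and deficient sham, and was at least 4.2-fold lower in deficient injured than deficient sham kidney.

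The mitotic kinases and the spindle checkpoint gave the largest single difference. Pbk, a kinase of dividing cells, read -4.11 and -3.22 on the wild-type sham arrays, -4.17 and -4.49 on the wild-type injured arrays, -0.62 on the deficient sham array and -7.82 on the deficient injured array. The last was not above background, and lay at least 33.5-fold below deficient sham kidney. Against the wild-type injured mean the value was 2.56-fold lower, which is no strict bound because wild-type injured array 2 was not above background either. Aurora A (Aurka), which matures the spindle poles, read -3.15 and -2.21 in wild-type sham, -1.81 and -2.27 in wild-type injured, -0.13 in deficient sham and -2.54 in deficient injured kidney. Plk1, which acts from mitotic entry to exit, stood at -2.81 and -1.80, -1.86 and -2.14, 0.12, and -2.30 on the same arrays. For both kinases the deficient sham array stood alone and the deficient injured array lay within the wild-type range. Survivin (Birc5), a partner of Aurora B, was 2.76 higher in deficient than wild-type sham kidney (SE 0.67). Aurora B (Aurkb) and Bub1b, a checkpoint protein, were lower in deficient injured than deficient sham kidney, by at least 6.59-fold for Aurkb and at least 4.23-fold for Bub1b. For Aurkb the measured signal was used, so its figure equals the fitted difference. Bub1, the checkpoint kinase, did not follow: the probe used ranged from -0.57 to 0.24 over the 6 arrays. A second Bub1 probe, above background on 3 arrays, was 2.51 higher in deficient than wild-type sham kidney, so the probes of this gene disagree.

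Both partners of the anaphase promoting complex, which ends mitosis by destroying cyclin B and securin, had their highest signal on the deficient sham array. Cdc20, its activator, read -1.87 and -0.82 in wild-type sham, -1.23 and -1.52 in wild-type injured, 1.08 in deficient sham and -1.79 in deficient injured kidney. Ube2c, its ubiquitin-conjugating enzyme, read -3.67 and -1.89, -1.74 and -3.10, -0.22, and -3.43. Both promoters are among those printed above, with a CHR word close to the start.

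Chromosome and kinetochore genes were 0.84 to 3.58 higher in deficient than wild-type sham kidney (5 of 5). Mki67, the proliferation marker that coats mitotic chromosomes, read -2.51 and -0.55 in wild-type sham, -1.13 and -1.57 in wild-type injured, 1.39 in deficient sham and -2.43 in deficient injured kidney. Its wild-type injured values lay between the sham ones. Cenpf, a kinetochore protein, read -6.20 and -3.44, -4.32 and -6.16, -1.24, and -7.13, and was at least 21.8-fold lower in deficient injured than deficient sham kidney. Kif22, a chromosome motor, was 1.85 higher in deficient sham than wild-type sham kidney (SE 0.41). Cenpe, a kinetochore motor, and Top2a, which untangles DNA, were at nearly the same signal on the deficient sham array as on wild-type sham array 2 (0.16 and -0.04 for Cenpe, -2.19 and -2.23 for Top2a). Both were lower on all 3 injured arrays than on either of those 2. A second Cenpe probe, above background on 3 arrays, differed by -0.28 between deficient and wild-type sham kidney. The remaining Top2a probe with signal was above background on 1 array only, and was 2.61 higher in deficient than wild-type sham kidney.

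Spindle and midzone genes held the other exceptions. Tpx2, which activates Aurora A on the spindle, read -5.76 and -3.92 in wild-type sham, -3.74 and -3.30 in wild-type injured, -1.80 in deficient sham and -4.60 in deficient injured kidney, and was the only mitotic gene with both wild-type injured arrays above both wild-type sham arrays. Prc1, which bundles midzone microtubules, read -3.66 and -1.64, -1.79 and -2.63, 0.43, and -3.44. Kif20a, a midzone motor, and Nusap1, a spindle-associated protein, were 2.52 and 1.98 higher in deficient than wild-type sham kidney (SE 0.79 and 0.60). Kif23, another midzone motor, read -2.66 and -3.75, -2.79 and -2.44, -2.39, and -2.77, and its other probe with signal gave like values. It was highest on the deficient sham array by little, and its wild-type sham arrays lay apart. Kif11, the motor that separates the spindle poles, read -2.71 and -5.50 in wild-type sham, -5.59 and -4.90 in wild-type injured, -5.55 in deficient sham and -4.22 in deficient injured kidney on the probe used, which carries a cDNA clone's accession. It was above background on wild-type sham array 1 and the deficient injured array alone, and deficient sham minus wild-type sham array 2 was -0.06, so its lower value in deficient sham kidney rests on wild-type sham array 1. The probes with the accession of the Kif11 transcript were each above background on 1 array, and differed by 2.62 and -0.72 between deficient and wild-type sham kidney.

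Among the replication genes the G1/S cyclins came first in order of action. Cyclin E1 (Ccne1), which with Cdk2 starts S phase, read -2.51 and -2.43 in wild-type sham, -1.31 and -1.53 in wild-type injured, -1.06 in deficient sham and -2.27 in deficient injured kidney. All 4 of the latter lay above both wild-type sham arrays, the deficient injured one by little. A second Ccne1 probe, above background on 4 arrays, differed by -0.05 between wild-type injured and sham kidney, so the probes of this gene disagree. Cyclin E2 (Ccne2) was above background on 2 arrays only, and its injury change in wild type has no usable bound.

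Origin licensing genes were higher in wild-type injured than sham kidney for 8 of 9 (median 0.69). Cdc6, which loads the MCM helicase, read -6.68 and -6.21 in wild-type sham, -3.95 and -4.0 in wild-type injured, -3.90 in deficient sham and -5.69 in deficient injured kidney. It was above background on the wild-type injured and deficient sham arrays alone, so it was at least 2.14-fold higher in wild-type injured than wild-type sham kidney, at least 2.25-fold higher in deficient than wild-type sham kidney, and at least 3.44-fold lower in deficient injured than deficient sham kidney. These bounds hold for the probe used. A second Cdc6 probe, above background on 2 arrays, differed by only 0.56, 0.23 and -0.84 in the same comparisons. Mcm5, an MCM subunit, read -0.53 and -1.32, 0.09 and 0.24, 0.40, and -0.47, which put all 4 other arrays above both wild-type sham arrays. Mcm2 read -0.32 and -0.68, 0.15 and 0.51, 0.21, and 0.03, again with no overlap. Mcm3 was 0.92 higher (SE 0.32) and Mcm4 0.69 higher (SE 0.25) in wild-type injured than sham kidney. Cdt1, the partner of Cdc6, was 0.58 higher (SE 0.26) and Mcm7 0.35 higher (SE 0.24). Mcm6 was the exception among the MCM genes: it read 3.06 and 3.10 in wild-type sham, 2.96 and 2.63 in wild-type injured, 3.35 in deficient sham and 2.77 in deficient injured kidney, so that all 3 injured arrays were below both sham groups. Its promoter, printed above, has E2F words as that of Mcm5 does. Cdc45, which travels with the helicase, differed by 0.16 between wild-type injured and sham kidney (SE 0.30) and was lowest on the deficient injured array.

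The clamp and deoxynucleotide genes were 0.33 to 0.65 higher in wild-type injured than sham kidney. For all 4 both wild-type injured arrays lay above both wild-type sham arrays, against 16.2% of all genes. The gap was narrow for Pcna and Rrm2, whose nearest injured and sham arrays read 2.44 and 2.43, and -2.41 and -2.46. Tyms, thymidylate synthase, read 2.04 and 1.78 in wild-type sham, 2.61 and 2.51 in wild-type injured, 2.38 in deficient sham and 2.34 in deficient injured kidney. Rrm1, the large subunit of ribonucleotide reductase, read 0.13 and 0.05, 0.47 and 0.42, 1.07, and 0.39. Deficient injured minus deficient sham kidney was -0.04 for Tyms and -0.69 for Rrm1. Rrm2, the small subunit, whose protein is made and destroyed with S phase, read -3.03 and -2.46, -2.19 and -2.41, -0.65, and -3.15, an order closer to that of the mitotic genes. Pcna, the sliding clamp, read 2.43 and 2.31, 2.44 and 2.96, 2.97, and 2.48.

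Whether injury changed these genes in wild-type kidney was tested with limma on 2 against 2 arrays. Replication genes were higher in 14 of 15 (median 0.58), all but Mcm6, and mitotic genes were higher in 12 and lower in 12 of 24 (median 0.08). Both wild-type injured arrays lay above both wild-type sham arrays for 12 of 15 replication genes, all but Ccne2, Mcm6 and Cdc45, and for 1 of 24 mitotic genes, against 16.2% of all genes. All 3 injured arrays lay above both wild-type sham arrays for 11 of 15 replication and 0 of 24 mitotic genes, against 13.7%; the replication count was 6 with normexp correction (10.1%) and 7 with the mean of probes (13.2%). The largest moderated t was that of Cdc6, followed by Ccne1, 1.05 higher (SE 0.24, adjusted p = 0.769), and Mcm5, 1.09 higher (SE 0.36). On a second probe of each gene, Cdc6 was 0.56 higher and Ccne1 differed by -0.05. Changes of at least 2-fold upwards were seen in 3 replication genes and 1 mitotic gene, against 4.34% of all genes, and downwards in 4 mitotic genes, against 4.77%. The 4 were Cenpe at -1.57, Top2a at -1.15, Kif11 at -1.14 and Nusap1 at -1.01, of which Nusap1 was 0.35 higher under another background correction. Kif11 was above background on neither wild-type injured array, and with the weakest counted signal in their place it was 1.83-fold lower. Limma called 0 of 19611 genes (0%), with 1254 at an unadjusted p under 0.05, among them 5 replication and 0 mitotic genes. Without wild-type injured array 1, 13 of 15 replication genes were higher (median 0.60) and 9 of 24 mitotic genes (median -0.18). Wild-type injured array 2 lay above both sham arrays for 12 of 15 replication and 4 of 24 mitotic genes. The share of all genes in that order was not counted. The 16.2% is for both injured arrays and is not its background, so nothing is drawn from these 2 counts. With normexp background correction 9 of 15 replication genes did not overlap, against 17.2% of all genes.

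In Gpr97-deficient kidney 23 of 24 mitotic genes were lower after injury than after sham (median -2.82, the same with 7 bounds in place of fitted values), and all 15 replication genes were lower (median -0.69), from 1 array each. At least 2-fold lower were 21 mitotic and 3 replication genes (Rrm2, Cdc6 and Ccne1), against 5.32% of all genes. Kif11 was the 1 mitotic gene at least 2-fold higher, against 4.56%. The limma fit takes the lone arrays to vary like the wild-type ones; it called 0 of 19611 genes (0%), with 535 at an unadjusted p under 0.05, among them 19 mitotic and 3 replication genes. The difference has no replicate of its own.

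**Figure D4:**
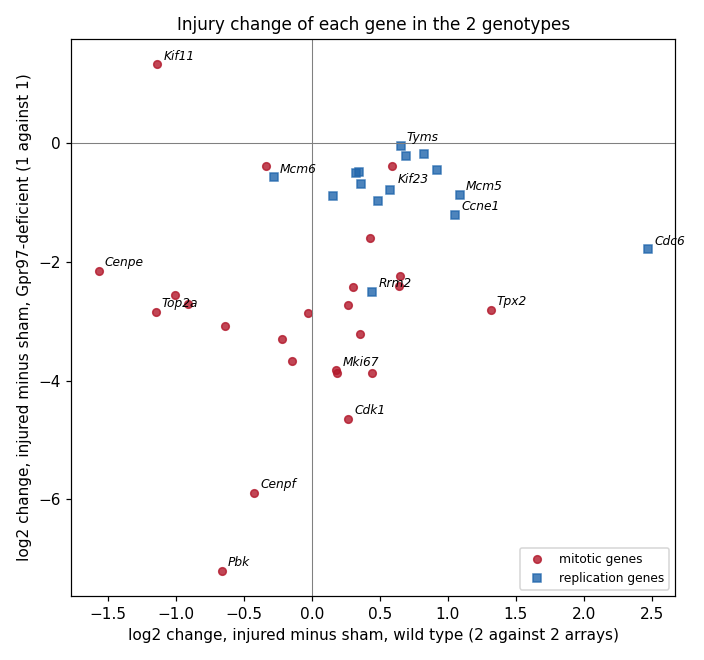
Log2 change from sham to injury of each of 39 genes in wild-type (x axis, 2 against 2 arrays) and Gpr97-deficient kidney (y axis, 1 against 1), as fitted values also where an array was not above background. Mitotic genes (circles) spread about 0 on the x axis and reach -7.20 on the y axis, and replication genes (squares) lie mostly to the right, with Cdc6 at 2.47.

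Between genotypes after sham, 22 of 24 mitotic genes were higher in the deficient kidney (median 2.42), all but Bub1 and Kif11, and 14 of 15 replication genes (median 0.88), all but Cdc45. The same 22 and 14 were above both wild-type sham arrays, against 30% of all genes. At least 2-fold higher were 19 mitotic and 5 replication genes, against 2.99% of all genes, and Kif11, on the strength of wild-type sham array 1, at least 2-fold lower, against 4.52%. Further probes above background on 2 to 4 arrays put Ccne1 (-0.09), Cenpe (-0.28), Nusap1 (-0.57), Mcm4 (-1.24) and Rrm1 (-1.40) below 0 in this comparison, against the probes used. Cdk1 was 3.05 higher (SE 0.43, adjusted p = 1.0), with 1 of the 2 wild-type sham arrays above background, and Rrm2 2.09 higher (SE 0.38). Limma called 0 of 19611 genes (0%), with 420 at an unadjusted p under 0.05, among them 14 mitotic and 7 replication genes. Against wild-type sham array 2, on the same slide, the medians were 1.78 for mitotic (22 of 24 higher) and 1.03 for replication genes (15 of 15). With normexp background correction the deficient sham array was the highest of 6 for 14 of 24 mitotic genes, against 9.37% of all genes.

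After injury the medians between genotypes were closer to 0. Mitotic genes were lower in deficient than wild-type injured kidney for 21 of 24 (median -0.67, or -0.50 with the 6 bounds in place of fitted values), and replication genes for 14 of 15 (median -0.31). By fitted values 9 mitotic and 2 replication genes (Cdc6 and Cdc45) were at least 2-fold lower, against 4.48% of all genes. The 9 include Cdk1 and Cenpf, which were not above background on the deficient array. Kif11 was at least 2-fold higher by its fitted value, against 2.5%, but its bound was 1.68-fold. With the weakest counted signal in place of the deficient array, Cdk1 was 1.39-fold and Cenpf 1.36-fold below the wild-type injured mean. Neither is a strict bound, since wild-type injured array 2 was not above background for either gene. Cdc6 was at least 3.27-fold lower. Limma called 0 of 19611 genes (0%), with 281 at an unadjusted p under 0.05, among them 2 mitotic and 3 replication genes. Without wild-type injured array 1, 20 of 24 mitotic genes were lower (median -0.60), 6 of them at least 2-fold, and 12 of 15 replication genes (median -0.48).

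The interaction of genotype and injury, the deficient minus the wild-type injury change, was below 0 for 23 of 24 mitotic genes (median -2.93) and 15 of 15 replication genes (median -1.05). By fitted values it was at least 2-fold below 0 for 20 mitotic and 10 replication genes, against 4.51% of all genes. For Kif11 it was at least 2-fold above 0, against 4.33%. Pbk at -6.54 (SE 0.69), Cdk1 at -4.92 (SE 0.60) and Cdc6 at -4.26 (SE 0.48) had the largest moderated t, as fitted values that include arrays not above background, each with adjusted p = 1.0. Limma called 0 of 19611 genes (0%), with 291 at an unadjusted p under 0.05, among them 14 mitotic and 5 replication genes. Without wild-type injured array 1 the counts below 0 were again 23 of 24 and 15 of 15.

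With genotype as a second term, injury over both genotypes put 23 of 24 mitotic genes lower (median -1.08) and 12 of 15 replication genes higher (median 0.12). Limma called 0 of 19611 genes (0%), with 2408 at an unadjusted p under 0.05, among them 4 mitotic and 0 replication genes. The mitotic median rests on the deficient arrays. With either of them left out, the fit repeats the wild-type comparison by its design, with the same median of 0.08. Within slides, the wild-type injury difference of mitotic genes had opposite signs, with a median of 0.38 on slide 1 (18 of 24 higher) and -0.42 on slide 2 (6 of 24 higher). That of replication genes had the same sign, 0.53 (12 of 15 higher) and 0.79 (14 of 15 higher). Wild-type sham array 2 was above all 3 injured arrays for 15 of 24 mitotic genes and 1 of 15 replication genes, Mcm6, against 31.3% of all genes.

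Further genes of the same pathways came from lists of other genes, likewise chosen with earlier results of these data known. Their medians had the same sign as those of the 40 genes in these comparisons. For wild-type injury, though, the median of the 24 mitotic genes was -0.18 without wild-type injured array 1. Of 40 other mitotic genes 31 were tested: their median was 1.07 higher in deficient than wild-type sham kidney (29 of 31 higher), 1.30 lower in deficient injured than deficient sham kidney (29 of 31 lower), and 0.31 higher in wild-type injured than sham kidney (24 of 31 higher). Nek2, a centrosome kinase, was 1.86 higher in deficient than wild-type sham kidney (SE 0.28), and Racgap1, of the midzone complex, 2.10 (SE 0.40). Neither gene was above background on wild-type sham array 1. Of 35 other replication genes 34 were tested, with medians of 0.57 (31 of 34 higher), -0.50 (31 of 34 lower) and 0.31 (25 of 34 higher) in the same comparisons. Chaf1b, a histone chaperone subunit of replicating chromatin, was 1.02 higher in wild-type injured than sham kidney (SE 0.24) and 1.93 higher in deficient than wild-type sham kidney (SE 0.30). None of these passed limma's adjusted threshold.

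The regulators of the cycle are given beside their targets. Of 17 tested cell cycle transcription factors the median was -0.05 in wild-type injury and 0.16 in deficient against wild-type sham kidney. E2f1, an activator of replication genes, was 2.13 higher in wild-type injured than sham kidney (SE 0.83), and Foxm1, an activator of mitotic genes, 1.95 higher in deficient than wild-type sham kidney (SE 0.67). E2f8, a repressor of E2F targets, was at least 4.28-fold lower in deficient injured than deficient sham kidney. Among 13 tested inhibitors Cdkn1a, which encodes p21, was 3.11 higher in wild-type injured than sham kidney (SE 0.65) and 2.38 higher in deficient injured than deficient sham kidney (SE 0.92). Myc, neither a cyclin nor a kinase but in the list of 9 G1 genes, was 2.44 and 2.13 higher in these comparisons (SE 0.64 and 0.91). None of them passed the adjusted threshold.

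Some blood cell genes were also high on the deficient sham array, and their part in the mitotic values was not tested. Of 14 erythroid markers 13 had a probe, and their summed level was 4.39 and 4.83 in wild-type sham, 7.04 and 4.23 in wild-type injured, 8.04 in deficient sham and 6.20 in deficient injured kidney. The median of the 9 tested erythroid markers was 0.29 above the wild-type sham mean on the deficient sham array (5 of 9 above), and that of 8 T and NK cell markers was -0.18 (2 of 8 above). The globin gene Hba-a1 read 6.20 and the erythroid haem enzyme gene Alas2 1.64 on the deficient sham array, each the highest of 6. Ahsp, of red cell precursors, was above background on no array, and the erythroid factor Klf1 read -2.63 there, within its range of -3.71 to -2.36. Of 9 granulocyte precursor markers 7 were above background on that array, 6 on each other slide 2 array and 2 on each slide 1 array. The median of the 7 tested was 1.13 above the wild-type sham mean on the deficient sham array (5 of 7 above). The granule genes Camp, Ltf and Ngp read -1.62, -0.44 and -1.23 there, at most -4.10 elsewhere. Ctsg read -3.19 there, the highest of 6, and -3.56 on wild-type sham array 2. Mpo at -2.87 and Prtn3 at -4.71 on the deficient sham array lay between their wild-type sham values. Elane and Ms4a3 were above background on no array. The summed level of this list was 1.12 and -1.24, 3.40 and 5.40, 1.26, and 5.53 in the same order of arrays, a sum that holds Lcn2, also made by injured tubules. The 6 mature neutrophil markers had a median of 3.24 above the wild-type sham mean on that array, and 2.91, 3.14 and 2.11 on the deficient injured and wild-type injured arrays. Wild-type injured array 1 had Hba-a1 at 5.18 with the mitotic median at 0.19. In whole kidney, fewer cells of a type and less RNA per cell cannot be told apart.

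**Figure D5:**
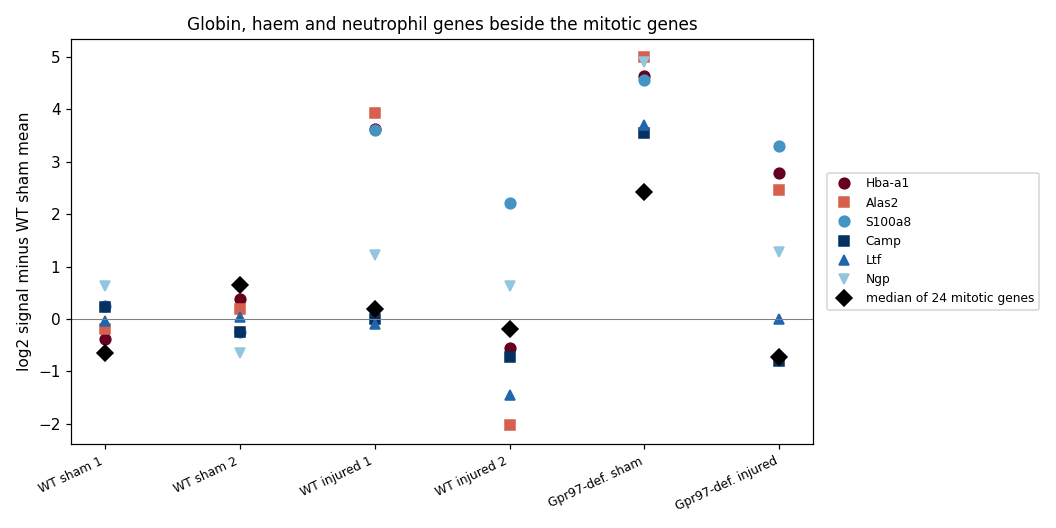
Log2 signal minus the wild-type sham mean on the 6 arrays for the globin gene Hba-a1, the haem enzyme gene Alas2, 4 neutrophil genes (S100a8, Camp, Ltf, Ngp) and the median of the 24 mitotic genes (diamonds). The mitotic median of 2.42 and the highest Camp, Ltf and Ngp signals fall on the same array, deficient sham, while S100a8, Hba-a1 and Alas2 are also high on wild-type injured array 1 and the deficient injured array. Mpo and Prtn3, from the same marker list as Camp, Ltf and Ngp, are not drawn and lay between their wild-type sham values on the deficient sham array. Ctsg, also of that list and not drawn, had its highest signal on that array.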

How the data were processed

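Agilent single-colour mouse arrays of kidney RNA were read from 6 deposited scanner files, whose intensity values come, per the file headers, from Feature Extraction 10.7.1.1 (slide 1) and 10.7.3.1 (slide 2), under protocol GE1_107_Sep09; probe positions are in mm9. Per the labels' protocols total RNA was checked for integrity and purified. The authors' deposited series values matched the scanner signals in rank (Spearman's rho at least 0.999 on each array) and were read as log2 values, with column medians of 6.07 to 6.09 and the normalization unknown. Limma, with no version, is the tool that the submitters' processing notes name.

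Here log2 of the processed signal minus the array's 75th percentile was used. Control spots (leaving 43379) and non-uniform or population outlier spots were left out, and spots of a probe averaged. The accession named 27668 of 41174 probes in RefSeq tables, the symbol 5589 and a synonym 471, while 7446 kept the file's name. For genes with several probes, the 1 with the highest mean signal was used. Genes well above background on at least 2 arrays were tested with limma 3.58.1 in R 4.3.3, two-sided, as group means on all 6 arrays (2 residual degrees of freedom), or genotype plus injury (3). Benjamini-Hochberg adjusted p under 0.05 was the threshold. Promoters were searched with Python 3.11.15, and figures drawn with matplotlib 3.10.9. A bound ("at least N-fold") was given where a probe was not above background in a whole group. It used the mean of the brighter group, and is no strict bound where an array of that group was not above background.

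The genes and lists were chosen with earlier results of these data known, and the orders of arrays counted were chosen after the values were seen. Genes given in full have the largest moderated t in their role or list, or a probe not above background in a whole group; Plk1, Kif23, Mcm2, Mcm6, Pcna and further probes of a gene were added after their values were seen. The fit was tested on simulated data. Alternatives were normexp with offset 50, quantile normalization, the deposited values, other filters on dim probes, slide as a block, the mean of a gene's probes, a variance trend, and leaving out arrays. No 2 arrays were identical (Pearson's r 0.938 to 0.98).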

Additional observations from a re-analysis of the deposited data

Results flagged for a closer look

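For 22 genes both wild-type injured arrays lay on 1 side of the wild-type sham mean and the deficient kidney moved the other way after injury, in 9 of 24 mitotic and 13 of 15 replication genes, against 15.6% of 19604 tested genes with a value on every array. Such a split marked the median of the replication genes, whose deficient minus wild-type injury change was -1.05. Among mitotic genes that difference was -4.92 for Cdk1, -3.05 for Aurka, -2.72 for Plk1, -2.88 for Bub1b, -2.03 for Kif22, -4.12 for Tpx2, -0.97 for Kif23 and -4.32 for Prc1, and 2.47 for Kif11, the only one of them above 0. Among replication genes it was -2.26 for Ccne1, -4.26 for Cdc6, -1.36 for Cdt1, -1.01 for Mcm2, -1.38 for Mcm3, -0.91 for Mcm4, -1.96 for Mcm5, -0.84 for Mcm7, -1.05 for Cdc45, -0.82 for Pcna, -1.04 for Rrm1, -2.95 for Rrm2 and -0.70 for Tyms. The split itself was not tested, and the limma interaction gave each of these genes an adjusted p of 1.0. These are fitted values, also where an array was not above background. Each deficient group is 1 array, so no spread within it was measured.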

How the results depend on the processing

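Medians of the groups of genes kept their sign in every setting for the injury change of replication genes in wild type (0.50 to 0.79). So did both deficient injury changes, both genotype comparisons and the interaction. Leaving out an array that a comparison does not use cannot move its median. The deficient injury changes, 1 array minus 1 array on the same slide, were thus fixed in those settings and with slide as a block. Such settings are in the counts below. A deficient array was left out only in the fit over both genotypes, which then repeats the wild-type injury comparison. The mitotic median in wild-type injury ran from -0.56 to 0.73, and that over both genotypes from -1.83 to 0.076. Leaving out arrays, replication medians ran from 0.52 to 0.79 (wild-type injury; 0.79 without wild-type sham array 1), 0.64 to 1.03 (genotype after sham), -0.48 to -0.27 (genotype after injury), -1.32 to -0.92 (interaction) and -0.015 to 0.58 (both genotypes). Normexp correction moved the median of all genes by 0.29 in wild-type injury, -0.26 in genotype after injury and in the interaction and 0.20 over both genotypes, and gave mitotic medians of -1.95 (deficient injury), 1.57 (genotype after sham) and -0.21 (both genotypes) and replication medians of -0.48, 0.72 and -0.16 (deficient injury, genotype after sham, genotype after injury). It reversed wild-type injury for Nusap1 (0.35), Pbk (0.73) and Ccnb1 (0.94), and Ccnb1 over both genotypes (0.35). Ube2c in wild-type injury ran from -0.53 to 1.25 as arrays were left out, and reversed without wild-type sham array 1 (-0.53) or wild-type injured array 1 (-0.32). Averaging a gene's probes gave replication medians of 0.71 (genotype after sham), -0.58 (genotype after injury) and -1.34 (interaction), and keeping genes above background on all 6 arrays gave -0.54 (deficient injury). Genes called went from 0 to 1 with a variance trend in genotype after injury, and over both genotypes to 1 with quantile normalization, the deposited values or slide as a block and 3 with a variance trend; none was a mitotic or replication gene listed here. The cause was not tested. Across alternatives 75 counts of genes called, 127 medians and 614 single-gene values kept their verdict, and 5, 21 and 6 did not. Signal over background limits Cdk1, Ccnb1, Cenpf, Bub1b, Kif11, Cdc6 and Ccne2, which were above background on at most 3 arrays, to bounds.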
